A study of Mus musculus with 12 samples.

Results

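Expression of 7 genes of cholesterol synthesis and its control was followed in the hippocampus of B6 and D2 mice after knockdown of Hp1bp3, which encodes a chromatin protein that binds heterochromatin protein 1. They were Hmgcs1, Idi1, Fdft1, Sqle, Dhcr7, Srebf2 and Insig1, chosen by symbol. All 7 were found among the 22236 genes of the count table, and all 7 passed the low-count filter that left 15853 genes for testing. The list was drawn up with earlier results of these data known.

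Cholesterol does not cross from blood into the adult brain in useful amounts, so neurons and glia depend on synthesis within the tissue. The pathway runs from acetyl-CoA through mevalonate and isoprenoid units to squalene, lanosterol and cholesterol. Its genes are switched on together by SREBP-2, a transcription factor held in the endoplasmic reticulum as a precursor and released for processing when membrane sterol is low. Whole hippocampus was measured, so fewer cells of a type and less RNA per cell cannot be told apart in any value given here.

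Males of the inbred strains C57BL/6J (abbreviated B6) and DBA/2J (abbreviated D2) were used at 3 to 5 months. Each received AAV9, an adeno-associated virus, carrying either a short hairpin RNA against Hp1bp3 (AAV9-shRNA-Hp1bp3, here KD) or a scrambled hairpin (AAV-scrmb-shRNA, here Ctrl), and the hippocampus was taken at least 6 weeks later. Every mouse in the 4 groups, Ctrl included, was therefore injected with virus carrying a hairpin, and there were 3 mice with 1 library each in B6 Ctrl, B6 KD, D2 Ctrl and D2 KD. The virus was delivered to the dorsal hippocampus while the whole hippocampus was lysed, so cells outside the injected region were part of every library.

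The 12 libraries summed to between 18.2 M and 39.4 M expected counts (median 32.4 M). Levels are given in CPM, counts per M counts of a library, after TMM normalization, which scales each library by an average ratio to the others. The target, Hp1bp3, lay between 182 and 259 CPM in B6 KD and between 294 and 310.1 CPM in B6 Ctrl. For D2, Ctrl libraries spanned 215 to 234 CPM; D2 KD 1 (177 CPM) and D2 KD 2 (163 CPM) lay below them, while the library labelled D2 KD 3 (229.5 CPM) lay among them, against its label. The KD differences of the 7 genes that include D2 are therefore also given without it. Markers of neurons and glia were present in every library. The summed level of 6 choroid plexus genes differed from library to library in all groups, from 58.6 to 5095 CPM.

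The promoters are shown because the 7 genes rose and fell together from mouse to mouse, as described below. RefSeq promoter windows (build GRCm38.p6, 250 bases before the start site to 50 after it) were matched by symbol for 5 of the 7 genes. Sqle and Fdft1 had no entry. The 250 bases before the start site are printed for Hmgcs1 (chr13:119690101-119690350), Idi1 (chr13:8885356-8885605), Insig1 (chr5:28071162-28071411) and Srebf2 (chr15:82147019-82147268), all on the + strand and 5′ to 3′. Capitals mark TCACNCCAC, a form of the sterol regulatory element that SREBP binds, and CCAAT, the box bound by NF-Y, on either strand, so that ATTGG is CCAAT read on the other strand.
Hmgcs1: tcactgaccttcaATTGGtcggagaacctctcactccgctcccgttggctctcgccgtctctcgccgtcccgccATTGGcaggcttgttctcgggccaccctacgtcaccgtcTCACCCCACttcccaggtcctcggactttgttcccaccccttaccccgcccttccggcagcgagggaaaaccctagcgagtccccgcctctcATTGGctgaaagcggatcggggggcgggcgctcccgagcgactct
Idi1: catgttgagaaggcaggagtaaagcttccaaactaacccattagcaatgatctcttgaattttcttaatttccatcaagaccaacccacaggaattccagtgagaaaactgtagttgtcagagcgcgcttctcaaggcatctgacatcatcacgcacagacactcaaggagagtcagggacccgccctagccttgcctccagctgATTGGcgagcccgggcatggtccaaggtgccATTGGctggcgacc
Insig1: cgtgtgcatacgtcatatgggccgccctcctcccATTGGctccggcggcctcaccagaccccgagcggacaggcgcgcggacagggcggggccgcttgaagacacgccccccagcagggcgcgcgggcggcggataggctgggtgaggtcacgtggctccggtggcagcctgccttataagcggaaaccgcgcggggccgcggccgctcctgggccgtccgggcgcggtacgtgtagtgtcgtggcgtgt
Srebf2: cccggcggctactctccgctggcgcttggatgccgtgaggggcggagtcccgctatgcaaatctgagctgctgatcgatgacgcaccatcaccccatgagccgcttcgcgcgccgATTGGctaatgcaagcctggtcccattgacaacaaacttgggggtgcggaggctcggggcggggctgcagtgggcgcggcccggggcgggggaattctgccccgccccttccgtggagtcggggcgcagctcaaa

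TCACNCCAC was present in the window of Hmgcs1 alone, beginning at base -137 counted back from the start site, and 1.44% of the 27025 genes with a window held it in at least 1. CCAAT was present in a window of all 5 genes, against 41.06% of all genes, with 4 copies in Hmgcs1 of which 3 lay before the start site. The GC box GGGCGG, bound by Sp1, was also present for all 5 genes, against 38.2% of all genes. The E-box CACGTG, searched as its own reverse complement, was present for Insig1 and Dhcr7, against 8.09% of all genes. Counted by window, 5 of the 7 windows of these genes held CCAAT, 6 held the GC box and 2 the E-box, against 37.4%, 35.7% and 7.15% of all 32851 windows, of which 1.24% held TCACNCCAC. Both strands were searched, Dhcr7 had several windows that were each searched, and no match in these genes overlapped another. Of 14 other sterol enzymes with a window, 13 held CCAAT, 12 the GC box, 2 the E-box and 0 TCACNCCAC. The CCAAT and GC boxes were therefore not particular to the 5 genes. A match describes letters only, and its part in the shared changes of the 7 genes was not tested.

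Compared per kilobase of merged exons (GENCODE M21), the order of the 7 mean levels was the same in all 4 groups. Hmgcs1 was highest, followed by Srebf2, Insig1, Fdft1, Idi1, Sqle and Dhcr7. In B6 Ctrl this ran from 55.7 ± 3.23 CPM per kb for Hmgcs1 to 6.46 ± 0.227 CPM per kb for Dhcr7 (SD, n = 3), and no neighbours in the order overlapped. In B6 KD all neighbours from Srebf2 down to Sqle overlapped. In D2, with Ctrl or KD, the ranges overlapped between Insig1 and Fdft1, Fdft1 and Idi1, and Idi1 and Sqle.

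**Figure D1:**
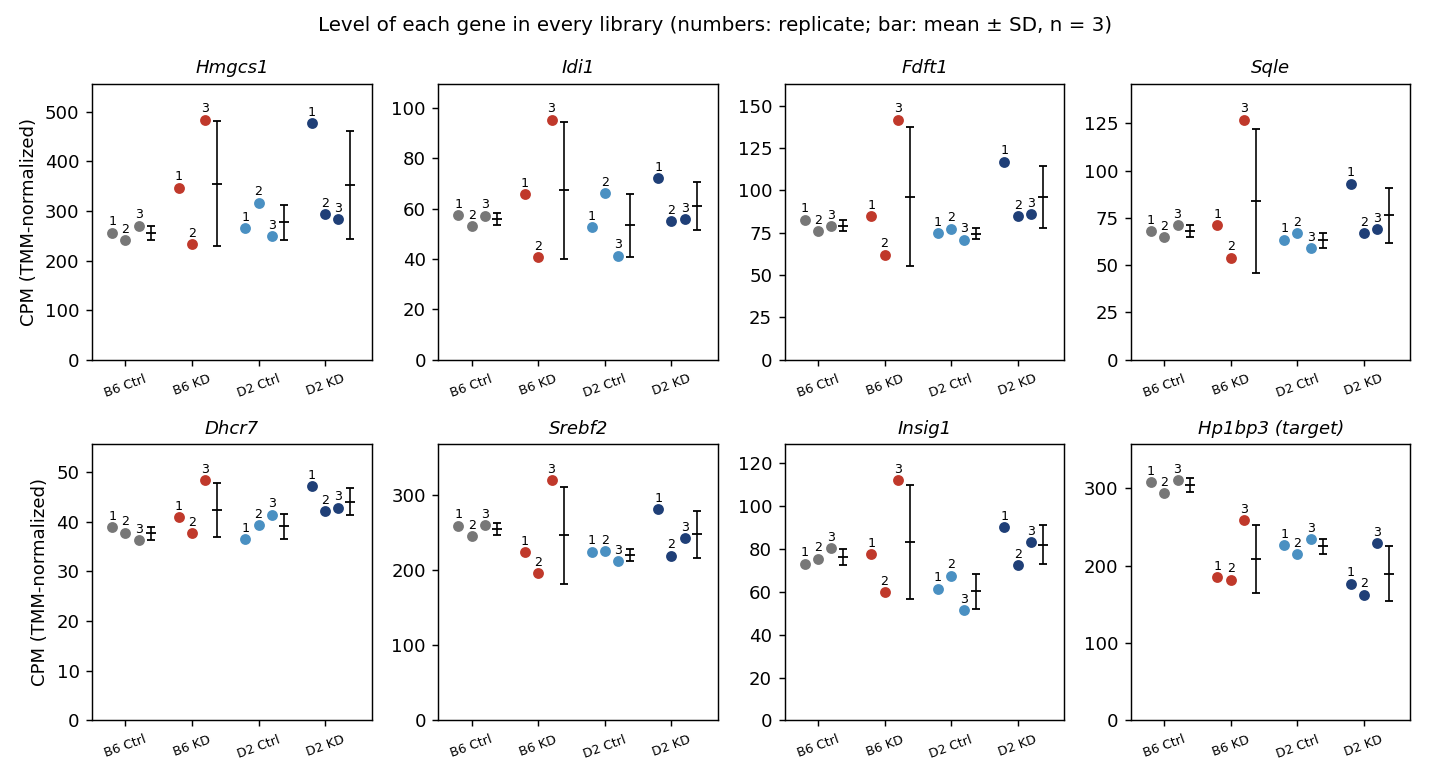
Level of each gene in CPM (vertical axis, from 0) in every library of the 4 groups, with the replicate number above each point and the group mean ± SD (n = 3) as a black bar; the last panel is the target Hp1bp3. B6 KD 3 is the highest point in all 7 panels of cholesterol genes and D2 KD 1 is the next highest.

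The first question was whether KD changed the enzymes of the pathway. Hmgcs1 (ENSMUSG00000093930, chr13:119690379-119708260) encodes the cytosolic enzyme that joins acetyl-CoA and acetoacetyl-CoA into HMG-CoA. It stood at 256, 241 and 270.3 CPM in B6 Ctrl and at 347, 233 and 484 CPM in B6 KD. In D2 it stood at 266, 317 and 249 CPM in Ctrl and at 477, 294 and 284 CPM in KD. In B6, KD 1 and KD 3 lay above all Ctrl libraries and KD 2 below them, and in D2, KD 1 lay above them and the other KD libraries within their range. The fitted KD difference averaged over strains was 0.41 ± 0.18 on the log2 scale (SE), with a 95% interval of 0.01 to 0.81, and it did not pass edgeR's test across all genes (unadjusted p = 0.0450, adjusted p = 0.249).

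Idi1 (ENSMUSG00000058258, chr13:8885501-8892451) encodes the isomerase that converts isopentenyl into dimethylallyl diphosphate, the units from which longer isoprenoids are built. Its levels were 57.5, 53.0 and 57.3 CPM in B6 Ctrl against 65.8, 40.8 and 95.4 CPM in B6 KD. They were 52.7, 66.2 and 41.4 CPM in D2 Ctrl against 72.3, 55.2 and 55.9 CPM in D2 KD. Ctrl and KD overlapped in both strains. The averaged difference was 0.23 ± 0.19 (log2, SE; adjusted p = 0.528).

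Fdft1 (ENSMUSG00000021273, chr14:63145150-63179578, - strand) encodes squalene synthase, the first step committed to sterols. It was measured at 82.7, 75.9 and 79.0 CPM in B6 Ctrl and at 84.8, 62.1 and 142 CPM in B6 KD, which overlapped. In D2 it was measured at 74.9, 77.4 and 71.0 CPM in Ctrl and at 117, 85.0 and 85.8 CPM in KD, with every KD library above every Ctrl library. The averaged difference was 0.32 ± 0.17 (log2, SE; adjusted p = 0.329).

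Sqle (ENSMUSG00000022351, chr15:59315077-59331192), which encodes the epoxidase that acts on squalene next, had 68.2, 64.8 and 71.1 CPM in B6 Ctrl and 71.4, 54.1 and 127 CPM in B6 KD. In D2 it had 63.6, 67.0 and 59.0 CPM in Ctrl and 93.2, 67.0 and 69.2 CPM in KD. The D2 groups overlapped narrowly, and the B6 KD libraries held both the lowest and the highest value of all 12. The averaged difference was 0.29 ± 0.18 (log2, SE; adjusted p = 0.402).

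Dhcr7 (ENSMUSG00000058454, chr7:143823145-143848410) encodes the reductase of the last step to cholesterol. Its values were 38.8, 37.8 and 36.2 CPM in B6 Ctrl and 40.9, 37.6 and 48.3 CPM in B6 KD, where only KD 2 lay within the Ctrl range. In D2 they were 36.4, 39.2 and 41.4 CPM in Ctrl and 47.1, 42.1 and 42.8 CPM in KD, without overlap. It had the smallest spread of the 7 genes in B6 KD and in D2 KD. Its averaged difference was 0.17 ± 0.07 (log2, SE), with a 95% interval of 0.02 to 0.32 (unadjusted p = 0.0313, adjusted p = 0.216).

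Of the regulators, Srebf2 (ENSMUSG00000022463, chr15:82147181-82205379) encodes the precursor of SREBP-2. It had 259, 246 and 260.0 CPM in B6 Ctrl and 224, 196 and 319 CPM in B6 KD, so that 2 KD libraries lay below the Ctrl range and 1 above it. In D2 it had 225, 225 and 212 CPM in Ctrl and 281, 219 and 242 CPM in KD, which overlapped. The averaged difference was 0.06 ± 0.11 (log2, SE; 95% interval -0.18 to 0.30; adjusted p = 0.797).

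Insig1 (ENSMUSG00000045294, chr5:28071363-28078662) encodes a membrane protein that retains the SREBP precursor in the endoplasmic reticulum and is itself a target of SREBP. It had 73.1, 75.5 and 80.5 CPM in B6 Ctrl and 77.4, 59.8 and 112 CPM in B6 KD, which overlapped. In D2 it had 61.4, 67.5 and 51.6 CPM in Ctrl and 90.3, 72.4 and 83.0 CPM in KD, with all KD libraries above all Ctrl libraries. The difference was 0.28 ± 0.14 averaged over strains (log2, SE; adjusted p = 0.286) and 0.45 ± 0.19 in D2 (95% interval 0.02 to 0.87, unadjusted p = 0.0426, adjusted p = 1).

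Averaged over strains, edgeR's quasi-likelihood test called 0 of the 7 genes, and it called 0% of all 15853 genes, although 3046 had an unadjusted p under 0.05. Hmgcs1 and Dhcr7 were the 2 of the 7 at that unadjusted level. The target Hp1bp3 was among the genes edgeR did not call here. Its averaged difference ran from -0.43 to -0.37 (log2) under the other settings with all libraries. The adjusted p of those tests ran from 0.00961 to 0.106, so the call of Hp1bp3 depended on the setting. Without the library labelled D2 KD 3 edgeR called Hp1bp3 averaged over strains (-0.48 ± 0.10, log2, SE; adjusted p = 0.0283). DESeq2 called 1241 genes for this comparison and limma-voom 0, and neither called any of the 7. All 7 fitted differences were above 0, with a median of 0.28 (log2) against 0.01 for all genes tested, of which 51.2% were above 0. Without the library labelled D2 KD 3 the averaged differences were 0.47 ± 0.19 for Hmgcs1, 0.36 ± 0.19 for Fdft1, 0.32 ± 0.20 for Sqle, 0.28 ± 0.15 for Insig1, 0.26 ± 0.20 for Idi1, 0.18 ± 0.08 for Dhcr7 and 0.07 ± 0.12 for Srebf2 (log2, SE), and 0 of the 7 were called.

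In B6, 0 of the 7 genes were called by edgeR, against 2.64% of all genes tested, and 0 of the 7 had an unadjusted p under 0.05. DESeq2 and limma-voom also called 0 of the 7, while they called 1688 and 368 genes in all. Of the 7 fitted differences, 6 were above 0, from 0.12 ± 0.19 for Insig1 to 0.47 ± 0.25 for Hmgcs1 (log2, SE), and Srebf2 was at -0.05 ± 0.16. The intervals were wide: that of Sqle ran from -0.25 to 0.86 and that of Fdft1 from -0.25 to 0.82. None of the 7 had all KD libraries above all Ctrl libraries in B6, an arrangement found for 13.9% of the genes tested.

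In D2, 0 of the 7 and 0% of all genes were called by edgeR, and 452 genes reached an unadjusted p under 0.05, Insig1 among them. DESeq2 called 1 gene and limma-voom 0, none of them among the 7. The 7 differences ran from 0.17 ± 0.16 for Srebf2 to 0.45 ± 0.19 for Insig1 (log2, SE). Without the library labelled D2 KD 3 they were 0.48 ± 0.28 for Hmgcs1, 0.44 ± 0.28 for Fdft1, 0.43 ± 0.22 for Insig1, 0.34 ± 0.29 for Sqle, 0.26 ± 0.30 for Idi1, 0.19 ± 0.11 for Dhcr7 and 0.18 ± 0.18 for Srebf2 (log2, SE), again with 0 called. Insig1, Dhcr7 and Fdft1, 3 of the 7, had all D2 KD libraries above all D2 Ctrl libraries, an arrangement found for 2.93% of the genes tested. None had it in both strains, where the share of all genes was 0.618%. For D2 this arrangement includes the library labelled D2 KD 3, whose Hp1bp3 level lay among the D2 Ctrl libraries.

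**Figure D2:**
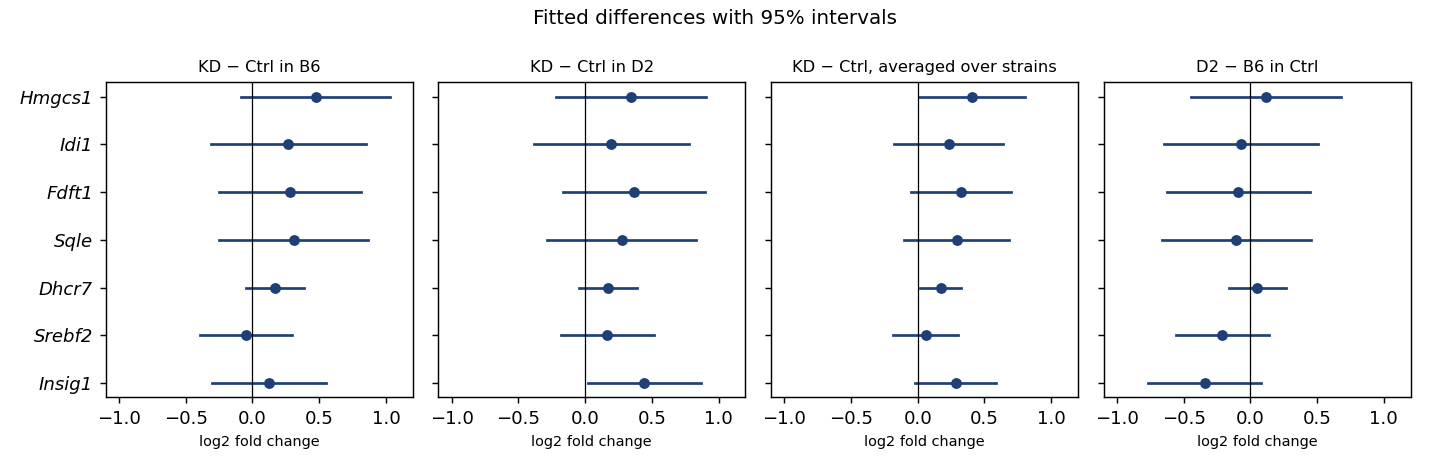
Fitted differences (points, log2 fold change on the horizontal axis) with 95% intervals (lines) for the 7 genes in 4 comparisons, each panel with the line of no difference at 0. The intervals of Hmgcs1 and Dhcr7 averaged over strains and of Insig1 in D2 lie wholly above 0, and no adjusted p passed the threshold.

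Whether the KD effect depended on strain was tested as an interaction. It was called for 0 of the 7 genes and for 0% of all genes by edgeR, with 937 genes and 0 of the 7 at an unadjusted p under 0.05. DESeq2 called 11 genes and limma-voom 0, none of the 7. The interaction was largest for Insig1, at 0.32 ± 0.27, and for Srebf2, at 0.21 ± 0.22 (log2, SE, KD effect in D2 minus that in B6). Its intervals reached -0.92 for Hmgcs1 and 0.92 for Insig1, so that a difference between strains of up to that size lay within them. Without the library labelled D2 KD 3 the interaction of Insig1 was 0.31 and that of Srebf2 was 0.23, the other 5 genes lay between -0.01 and 0.16, and 0 were called. Without B6 KD 3 the interaction was 0.61 ± 0.20 for Insig1, 0.49 ± 0.22 for Fdft1 and 0.46 ± 0.15 for Srebf2 (log2, SE; unadjusted p = 0.0127, 0.0484 and 0.0116, adjusted p = 0.414, 0.504 and 0.414), again with 0 called. Over the 12 fits with 1 library left out, Insig1 ran from 0.15 (without B6 KD 2) to 0.61 and Srebf2 from 0.092 (without B6 KD 2) to 0.46.

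In B6 the KD libraries differed more among themselves than the Ctrl libraries for all 7 genes, and in D2 for 4 of them. In B6 Ctrl the coefficient of variation of the 7 genes ran from 3.18% (Srebf2) to 5.80% (Hmgcs1), below the median of 8.31% over the 14181 genes with a mean of at least 1 CPM. In B6 KD it ran from 12.9% (Dhcr7) to 45.3% (Sqle), with a median of 35.4% against 12.6% over all genes. In D2 the median over the 7 genes was 6.37% in Ctrl and 15.9% in KD, against 11.5% and 11.6% over all genes. Idi1 (23.3% in Ctrl, 15.9% in KD), Insig1 (13.4% and 10.97%) and Dhcr7 (6.37% and 6.20%) had the larger spread in D2 Ctrl. These spreads are described, with no test, since each rests on 3 libraries.

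The 7 genes largely shared the libraries in which they were high or low, while the size of the spread differed from gene to gene. B6 KD 3 was the highest of the 12 libraries for all 7 genes, at 1.25 times (Srebf2) to 1.89 times (Hmgcs1) the B6 Ctrl mean. D2 KD 1 was second highest for all 7, at 1.21 times (Dhcr7) to 1.72 times (Hmgcs1) the D2 Ctrl mean. That pair of ranks was held by 4.29% of the 14181 genes. B6 KD 2 was the lowest library for 5 of the 7 genes, with a median ratio of 0.784 to the B6 Ctrl mean, and only Dhcr7 was at its Ctrl level there, with a ratio of 1.00. Over all genes B6 KD 3 held the highest value for 16.6% and the lowest for 16.9%.

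After the mean of each group was taken from log2(CPM + 1), the 21 pairs among the 7 genes had correlations across the 12 libraries of 0.68 to 0.99, with a median of 0.91. The closest pair was Sqle and Fdft1. The loosest pairs were Dhcr7 with Idi1 and Dhcr7 with Insig1, both at 0.68. Over the 9 libraries outside B6 KD the median was 0.75 and the range was -0.04 to 0.98, and the 6 pairs with Dhcr7 were the 6 lowest. The points share library depth and normalization, and no p is given.

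**Figure D3:**
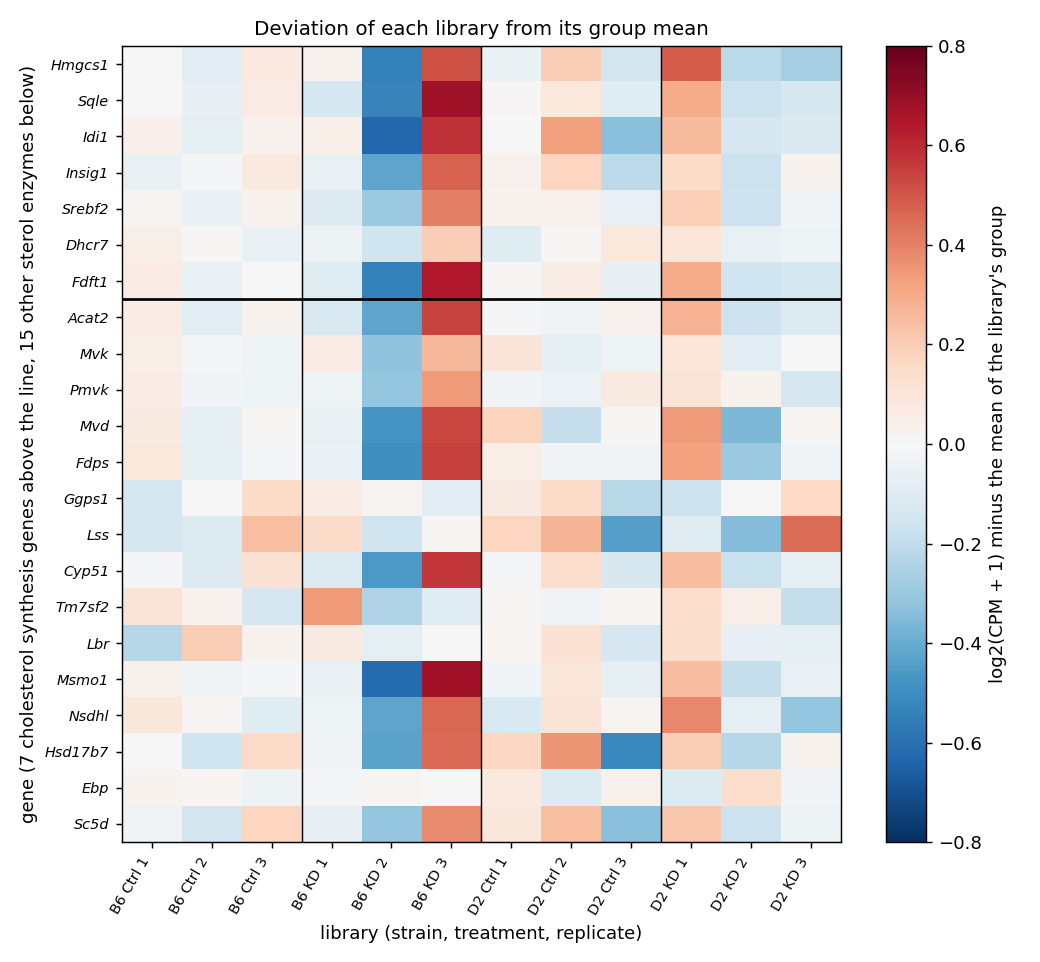
Deviation of log2(CPM + 1) in each library (columns) from the mean of its group, for the 7 genes (above the line) and 15 other sterol enzymes (below); red is above and blue below the group mean, and the colour scale ends at 0.8 either way. B6 KD 2 is blue and B6 KD 3 red for all 7 genes and for most of the enzymes below, and D2 KD 1 is red for all 7.

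Most of the other enzymes of the pathway varied alongside. For 12 of the 17 other enzymes on a fixed list, the correlation with the mean of the 7 genes over 12 libraries, group means removed, was above 0.8. The median was 0.87, against -0.02 over all genes, and it was 0.68 over the 9 libraries outside B6 KD. Msmo1, which removes a methyl group from sterols, was the gene most like the 7 of all 14174 compared, with r = 0.99, followed by Cyp51, the lanosterol demethylase, with r = 0.99. Msmo1 had 111, 75.5 and 186 CPM in the B6 KD libraries and 101, 96.7 and 97.9 CPM in B6 Ctrl. The enzymes below 0.8 were Ggps1, Lss, Tm7sf2, Lbr and Ebp, with r from -0.38 to 0.29 over the 12 libraries. Over the 9 libraries outside B6 KD Ebp ran opposite to the 7, with r = -0.80. Ggps1, Lss, Tm7sf2 and Lbr lay between -0.15 and 0.45 there. The other genes among the 10 most alike were Emc4, Acat2, Fdps, Polr3d, Adamts8, Shank3, Ola1 and Slc6a17, with r of 0.95 to 0.98, and Acat2 and Fdps belong to the list of enzymes. The 5 most opposite were Pnrc1, Itgal, Prim1, A230056P14Rik and Fv1, with r of -0.97 to -0.95.

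Without removal of group means the 10 most alike were Msmo1, Slc6a17, Adamts8, Nrn1, Acly, Tubb2a, Klf10, Fdps, Rheb and Scube1, with r of 0.92 to 0.97. The most opposite were Pnrc1, Foxo4, Tekt5, Calcoco1 and Phf21a, with r of -0.95 to -0.90. When B6 KD 3 and D2 KD 1, the libraries farthest from the median, were left out, Msmo1 was at 0.93 and Slc6a17 at 0.82 over 10 libraries, while Scube1 fell to 0.42 and Tekt5 stood at -0.32.

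The size of the KD difference rested on single libraries. With all libraries the median difference of the 7 genes in B6 was 0.27 (log2). Without B6 KD 3 it was -0.14, and Sqle, Idi1, Insig1 and Fdft1 changed sign. Without B6 KD 2 it was 0.50. In D2 the median was 0.27 with all libraries, 0.09 without D2 KD 1 and 0.34 without the library labelled D2 KD 3. Averaged over strains the median of 0.28 fell to 0.10 without B6 KD 3 and to 0.19 without D2 KD 1. No gene of the 7 was called in any of these fits.

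**Figure D4:**
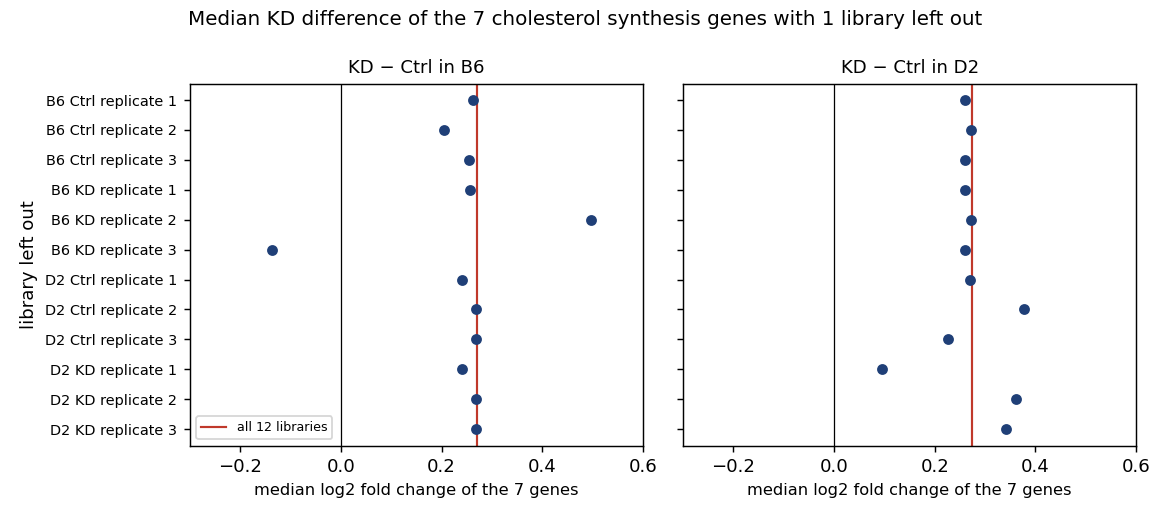
Median log2 fold change of the 7 genes (horizontal axis) for KD against Ctrl in B6 (left) and D2 (right) when the library named on the vertical axis is left out; the red line is the value with all 12 libraries and the black line marks 0. Leaving out B6 KD 3 moves the B6 median from 0.27 to -0.14, and leaving out D2 KD 1 moves the D2 median from 0.27 to 0.09.

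Several other measures differed between the same libraries. Interferon response genes (9 genes, all higher in KD and all called in B6) summed to 972 and 1250 CPM in B6 KD 1 and B6 KD 2 but to 410.0 CPM in B6 KD 3, against 68.1 to 83.2 CPM in B6 Ctrl. In D2 KD the sums were 346, 456 and 98.4 CPM, against 77.5 to 202 CPM in Ctrl, so D2 KD 1 was not the highest. Microglial markers (6 genes, none called) summed to 568, 545 and 354 CPM in B6 KD against 254 to 302 CPM in B6 Ctrl. In B6 all 6 were higher with KD, and 5 had an unadjusted p under 0.05 by edgeR (smallest adjusted p = 0.0637). That unadjusted level was reached by 20.6% of all genes tested in B6. In D2 4 of these markers were higher and 2 lower. Neuronal markers (6 genes, none called) were lowest in B6 KD 2, at 4625 CPM against 5021 to 5955 CPM in the 11 other libraries. Hippocampal neuron markers (6 genes, all lower in KD in both strains and none called) summed to 1605, 1308 and 1550 CPM in B6 KD against 1625 to 1820 CPM in B6 Ctrl, and to 1136, 1174 and 1165 CPM in D2 KD against 1182 to 1366 CPM in D2 Ctrl. Astrocyte markers (6 genes) summed to 7265, 5462 and 6083 CPM in B6 KD against 4584 to 5488 CPM in B6 Ctrl, and 1 of them, the water channel gene Aqp4, was called in B6 (1.202 ± 0.194, log2, SE; adjusted p = 0.0326). In D2 the astrocyte sums were 5639, 6754 and 5298 CPM in KD against 5523 to 7789 CPM in Ctrl. Myelinating oligodendrocyte markers (6 genes, none called for KD) summed to 4974, 4614 and 4046 CPM in B6 KD against 3928 to 5792 CPM in B6 Ctrl. In D2 their sums were 2722, 2624 and 3233 CPM in KD against 2680 to 4818 CPM in Ctrl. All 6 were lower with KD in D2, while 3 were higher and 3 lower in B6. B6 KD 3 was also the largest library (39.4 M) and B6 KD 2 one of the smaller (21.8 M). Hp1bp3 was higher in B6 KD 3 (259 CPM) than in B6 KD 1 and B6 KD 2, but in D2 KD 1 it was at 177 CPM, within the range of the other KD libraries. The choroid plexus sum was 5048 CPM in B6 KD 3, 4867 CPM in D2 KD 1 and 4138 CPM in B6 KD 2, so it was high in libraries at both ends. The part of any of these in the levels of the 7 genes was not tested.

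The further genes of the pathway were read from 4 fixed lists of 59 genes, all of them tested. None was called by edgeR for KD in B6, in D2 or averaged over strains. Among the 17 other sterol enzymes, 12 were higher and 5 lower averaged over strains, with a median of 0.10 (log2) and 0 at an unadjusted p under 0.05. The smallest p belonged to Nsdhl, a sterol dehydrogenase, at 0.31 ± 0.16 (log2, SE; adjusted p = 0.304). In B6 the first 2 were Nsdhl at 0.36 ± 0.22 and Ggps1, which makes geranylgeranyl diphosphate, at -0.20 ± 0.12, and in D2 Lbr was at 0.18 ± 0.13 (log2, SE). In the interaction Tm7sf2 was at 0.32 ± 0.23 (adjusted p = 0.935).

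Among the 11 genes of SREBP processing and sterol sensing, 6 were higher and 5 lower averaged over strains (median 0.01, log2). Erlin2, an endoplasmic reticulum protein of sterol regulation, had 65.3, 73.7 and 67.6 CPM in B6 Ctrl and 88.2, 99.97 and 81.9 CPM in B6 KD, without overlap. Its difference in B6 was 0.39 ± 0.10 (log2, SE) and was just outside edgeR's threshold (adjusted p = 0.0567), as it was averaged over strains (0.26 ± 0.07, adjusted p = 0.0803). DESeq2 called it in both comparisons. In B6 Nr1h3, the sterol-sensing receptor LXR alpha, was at 0.55 ± 0.17 (adjusted p = 0.108), with an interaction of -0.67 ± 0.25 (adjusted p = 0.821). Rnf139, a ubiquitin ligase of the same membrane, was at 0.16 ± 0.07 averaged over strains (adjusted p = 0.220) and at 0.10 ± 0.09 in D2, where Erlin2 was at 0.14 ± 0.10.

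Of the 20 genes of uptake, storage, efflux and turnover, 5 had an unadjusted p under 0.05 both averaged over strains and in B6. That share of 25% stood against 19.2% and 20.6% of all genes tested, and is near that background. Npc2, a lysosomal cholesterol carrier, had 50.6, 63.2 and 49.4 CPM in B6 Ctrl and 95.3, 103 and 80.4 CPM in B6 KD, a difference of 0.77 ± 0.19 (log2, SE; adjusted p = 0.0535). Abca1, the cholesterol efflux pump, had 38.6, 51.4 and 55.2 CPM against 141, 146 and 60.1 CPM, a difference of 1.26 ± 0.33 (adjusted p = 0.0646). Averaged over strains they were at 0.45 ± 0.13 and 0.77 ± 0.23 (adjusted p = 0.112 and 0.113). In both genes B6 KD 3 was the lowest of the B6 KD libraries, and it was the highest in the 7 cholesterol synthesis genes. The microglial marker sum was likewise lowest in B6 KD 3 among the B6 KD libraries, and their part in these differences was not tested. In D2 the smallest p were those of Scarb1 (0.26 ± 0.13) and Cyp7b1 (-0.21 ± 0.12), and Npc2 had an interaction of -0.65 ± 0.26 (adjusted p = 0.821), Abcg4 of 0.25 ± 0.12 (adjusted p = 0.840).

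Of 11 genes of fatty acid synthesis, 4 were higher and 7 lower averaged over strains (median -0.03, log2). Me1, malic enzyme, was at 0.32 ± 0.09 (adjusted p = 0.105) and Elovl6, a chain elongase, at -0.26 ± 0.15 (adjusted p = 0.391; log2, SE). In B6 Me1 was at 0.41 ± 0.13 and Elovl5 at 0.25 ± 0.13, and in D2 Me1 was at 0.23 ± 0.13 and Acss2 at 0.11 ± 0.09. The interactions of Elovl5 and Me1 were -0.21 ± 0.19 and -0.18 ± 0.19 (adjusted p = 0.961 and 0.967).

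The strain comparison asked whether D2 and B6 differed without KD. None of the 7 genes was called in Ctrl by edgeR, DESeq2 or limma-voom, against 14.0% of all genes tested by edgeR, and 0 of the 7 had an unadjusted p under 0.05. Insig1 was at -0.34 ± 0.19 and Srebf2 at -0.21 ± 0.16 (log2, SE, D2 minus B6; adjusted p = 0.342 and 0.505), and in both all D2 Ctrl libraries lay below all B6 Ctrl libraries. This arrangement held for 17.9% of all genes. The other 5 genes lay between -0.11 ± 0.25 for Sqle and 0.12 ± 0.25 for Hmgcs1. Averaged over treatments, 21.3% of all genes and 0 of the 7 were called, with values from -0.18 ± 0.14 for Insig1 to 0.05 ± 0.07 for Dhcr7.

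Among the further pathway genes 5 of 59 were called between strains in Ctrl, where edgeR called 14.0% of all genes tested. Averaged over treatments 7 of the 59 were called, against 21.3% of all genes tested. Lss, which makes lanosterol, was lower in D2, at 17.4, 18.7 and 11.04 CPM in D2 Ctrl against 37.5, 38.2 and 48.9 CPM in B6 Ctrl (-1.40 ± 0.24, log2, SE; adjusted p = 0.00196). In D2 KD it had 14.5, 12.1 and 21.6 CPM. Tm7sf2, a sterol reductase, was also lower, at 10.6, 10.3 and 10.6 CPM against 17.1, 16.1 and 14.3 CPM (-0.59 ± 0.16, adjusted p = 0.0300). Another 3 genes outside synthesis were higher in D2 Ctrl. They were Soat1, which esterifies cholesterol for storage (0.99 ± 0.18, adjusted p = 0.00310), Nr1h3 (0.77 ± 0.17, adjusted p = 0.0120) and Abcg1, an efflux pump (0.45 ± 0.13, adjusted p = 0.0489). Averaged over treatments the same 5 were called, at -1.34 for Lss, -0.43 for Tm7sf2, 0.74 for Soat1, 0.43 for Nr1h3 and 0.41 for Abcg1, together with Nr1h2 (LXR beta) at -0.26 ± 0.07 (adjusted p = 0.0180) and Elovl5 at 0.33 ± 0.09 (adjusted p = 0.0268). In Ctrl alone the fatty acid genes nearest the threshold were Elovl5 (adjusted p = 0.0527) and Acss2 (adjusted p = 0.293). The 6 markers of myelinating oligodendrocytes were all lower in D2 Ctrl than in B6 Ctrl (median -0.23, log2, 1 called). The 6 astrocyte markers were all higher there (median 0.48, log2, 1 called). Reads of each strain had been aligned to that strain's own genome. The part of the marker differences or of the alignment in the strain differences was not tested.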

How the data were processed

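Total RNA from the hippocampus of 12 male mice was sequenced as mRNA libraries (KAPA mRNA Hyper Prep), 3 for each combination of strain and treatment per the labels. Libraries were grouped by those labels alone, and replicate numbers, given in order of deposit, pair nothing. The paper states that some samples shared barcodes at first, so all were sequenced again, and that available reads of both runs were joined. Most but not all libraries gained depth in this way, and the paper does not name them. The part of this in the library totals was not tested. The authors mapped B6 and D2 reads to separate, strain-matched genomes and deposited expected counts per gene, estimated with RSEM 1.2.12 and Bowtie2 2.2.0 (submitters' processing notes, which name GRCm38 and mm10). The annotation release was not given in the sources used here, so positions and exon lengths are those of GENCODE M21 for the same Ensembl identifiers. Msmo1 is listed under its older symbol Sc4mol and was matched by identifier. A second deposited table holds the authors' DESeq2 normalized signal, whose values equal the expected counts without decimals divided by 1 size factor per library (0.584 to 1.35). Multiplying back gave whole reads for 100% of 266784 values (tolerance 0.01).

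Expected counts were rounded to whole numbers. The 6 comparisons were tested with edgeR 4.0.16 in R 4.3.3 (TMM, filterByExpr, 4 group means, robust quasi-likelihood F-test), with Benjamini-Hochberg adjustment over all 15853 genes and a threshold of 0.05. Standard errors were taken from the log2 fold change and its F statistic, and 95% intervals use the fitted degrees of freedom, so both are approximate. The fits were tested on simulated counts drawn for each gene separately, so variation shared between genes was not part of that test. Alternatives were DESeq2 1.42.0, limma 3.58.1 (voom), other scalings and filters, the newer quasi-likelihood method, a library total covariate, fits within a strain or within Ctrl, truncated reads (added after seeing the data) and each library left out. P-values set each difference against the spread between mice, counting error included, estimated over the groups of a fit together. The spread of the 7 genes differed between groups, as described above. Library totals were 18.2 to 39.4 M, with 693 (Dhcr7) to 19215 (Hmgcs1) expected counts of each of the 7 genes per library, and counting error was not separated from the spread between mice.

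The 7 genes, the further lists and the comparisons were chosen with earlier results of these data known. Genes named beyond the 7 and Hp1bp3 were, from each further list, those called in a comparison (up to 3 per direction) or else the 2 with the smallest p, except for 2 genes that are not reported here. Aqp4 was named after its values were seen. The 10 most and 5 least correlated genes were also named (Pearson, log2(CPM + 1), mean of at least 1 CPM). Small RNA data were not used here.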

Additional observations from a re-analysis of the deposited data

How the results depend on the processing

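None of the 7 cholesterol synthesis genes was called in any of the 6 comparisons under the 12 other settings with all libraries of a comparison or the 12 fits with 1 library left out, and their smallest adjusted p over all of these was 0.0881. Of 399 differences under the other settings, 391 kept their sign and 8 did not. With limma-voom the interaction became 0.046 for Sqle and 0.028 for Idi1. With the library total as covariate it became -0.028 for Dhcr7 and -0.049 for Fdft1, the Ctrl strain difference became 0.046 for Sqle, 0.046 for Idi1 and 0.065 for Fdft1, and the averaged strain difference of Fdft1 became 0.040. The cause was not tested.

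With 1 library left out, 473 of 504 differences kept their sign. Ranges of those that did not were as follows (log2). Averaged over strains Srebf2 ran from -0.077 to 0.12. In B6 Sqle ran from -0.15 to 0.52, Idi1 from -0.10 to 0.51, Insig1 from -0.18 to 0.29, Srebf2 from -0.31 to 0.073, Fdft1 from -0.14 to 0.50 and the median of the 7 from -0.14 to 0.50. In the interaction Hmgcs1 ran from -0.40 to 0.18, Sqle from -0.25 to 0.41, Idi1 from -0.31 to 0.28, Dhcr7 from -0.056 to 0.13, Fdft1 from -0.13 to 0.49 and the median from -0.13 to 0.41. Between strains in Ctrl Idi1 ran from -0.25 to 0.085. Averaged over treatments Hmgcs1 ran from -0.077 to 0.21, Sqle from -0.24 to 0.10, Idi1 from -0.23 to 0.074, Srebf2 from -0.17 to 0.025 and Fdft1 from -0.16 to 0.16. The median of the 7 ran from -0.17 to 0.10 there.

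The count of the 59 further pathway genes called moved more. DESeq2 called 4 averaged over strains (Erlin2, Abca1, Npc2 and Me1), 4 in B6 (Npc2, Abca1, Abcg4 and Erlin2) and 13 between strains averaged over treatments, against 0, 0 and 7 by edgeR. Over all 15853 genes DESeq2 called 1241, 1688 and 3896 for these comparisons, against 0, 418 and 3379 by edgeR. In B6 the newer quasi-likelihood method and the fit of the 6 B6 libraries called 1 each, Npc2 in both. Over all genes they called 612 and 292. With the library total as covariate 3 were called between strains in Ctrl, against 5. Over all genes that fit called 1758, against 2216. With 1 library left out the counts ran from 0 to 2 averaged over strains (1 without B6 KD 3, 1 without D2 Ctrl 3, 2 without the library labelled D2 KD 3), from 0 to 3 in B6 (3 without B6 KD 3, 2 without the library labelled D2 KD 3, 1 without D2 Ctrl 3 or D2 KD 2), from 2 to 8 between strains in Ctrl (2 without B6 Ctrl 1, 3 without B6 Ctrl 2, D2 Ctrl 1 or D2 Ctrl 3, 8 without B6 KD 3) and from 4 (without B6 Ctrl 1) to 9 averaged over treatments. Over all genes edgeR's 0 calls averaged over strains became 1241 with DESeq2, 15 with the newer method, 1 without B6 Ctrl 2, 400 without B6 KD 3, 326 without D2 Ctrl 3 and 799 without the library labelled D2 KD 3. The 418 calls in B6 became 1688 with DESeq2 and 0 with the library total as covariate, 0 without B6 Ctrl 1, B6 Ctrl 3, B6 KD 1, B6 KD 2 or D2 Ctrl 1, 45 without D2 Ctrl 2, 124 without D2 KD 1, 237 without B6 Ctrl 2, 673 without the library labelled D2 KD 3 and 790 without B6 KD 3. Pseudocounts of 0.25 and 5 kept at least 9 of the 10 genes most like the 7. No paired analysis was possible because the labels give no replicate numbers.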
